A study of Mus musculus with 12 samples.

Results

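The 1358 regions described here carried N6-methyladenosine (m6A) signal that was called at 6 weeks of age and not at 2 weeks in mouse hippocampus. They were chosen by the peak calls themselves. Peaks of 4 deposited lists that shared at least 1 bp were merged into 70384 regions, with the mitochondrial and Y chromosomes left out. A region was a member if both 6-week lists had a peak in it and neither 2-week list did. The members made up 1.93% of all regions and 9.96% of the 13633 regions called in both 6-week lists. The calls are therefore a description of these libraries and were not tested. The rule was sensitive to the number of lists it drew on: without 6-week replicate 1 or 2, when a single list needs no second call, 12715 and 12361 regions met it, and without 2-week replicate 1 or 2, 2612 and 2265.

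The tissue was hippocampus of wild-type C57BL/6 males aged 2 weeks or 6 weeks. Each age had 2 m6A immunoprecipitation (m6A-IP) libraries, in which poly(A)+ RNA fragments bound by an antibody to m6A were sequenced, and enriched stretches were called as peaks against control tags, which each list gives beside the immunoprecipitated (IP) tags. The lists do not name the control library. The labels number the biological replicates of each age and name no animals. The p-values therefore measure only the spread between these samples, which may be partly technical. The other 8 of the 12 samples in the labels (input libraries of both ages and expression libraries of adult wild-type and Fto knockout mice) were not analysed here.

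m6A is the most abundant internal modification of messenger RNA. It is deposited during transcription by the METTL3-METTL14 methyltransferase complex, removed by the demethylases FTO and ALKBH5, and bound by YTH-domain proteins that influence splicing, translation and decay of the transcript. In the hippocampus it has been linked to neurogenesis, synaptic function and memory. Between these ages the mouse hippocampus passes from synapse formation and early myelination to a near-mature circuit. Transcripts commonly carry m6A in clusters around the stop codon and in long internal exons, so a site that appears can lie beside an older one on the same RNA or on an RNA without earlier signal. The distance from each member to the nearest 2-week peak describes position on the genome only. Strand was ignored and no gene annotation was used, so a nearby peak may lie on another RNA.

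At 2 weeks, 39259 peaks were listed for replicate 1 and 39105 for replicate 2. At 6 weeks there were 33239 and 36494. If the deposited signal is per 10000000 tags, the IP libraries of 2 weeks held 23.4 M and 23.0 M tags (M, 1e6 tags) and those of 6 weeks 16.1 M and 16.5 M. The controls held 29.3 M and 16.8 M, then 15.8 M and 11.7 M. Sequencing of the 2-week IP libraries was thus deeper, and in this design age and depth cannot be told apart. Every listed peak was at least 3-fold over control. A list gives no tags for a site it does not hold, so a site just under the limit looks the same as one without signal.

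In 1203 of 1358 members (88.6%) each 6-week list had exactly 1 peak, and the median width was 124 bp (range 101 to 329). The peaks of the 6-week replicates overlapped by a median of 81 bp, and in 76 members by under 20 bp. Where each list had 1 peak, the starts lay a median of 21 bp apart. Width, overlap and start distance are tied to each other and to the width of the called peaks. They describe the calls.

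The members were modest in strength. Their peaks held a median of 35 IP tags in 6-week replicate 1 (range 7 to 586) and 27 in replicate 2 (9 to 530), taking the peak with the highest score where a list had several. Regions called in all 4 libraries held 89 and 60 tags in the same libraries, and regions called in 1 of the 6-week lists and nowhere else held 25 and 20. In IP tags the members thus lay between these classes in both libraries. The median fold over control, the authors' value for each peak, was 4.57 and 5.07, where regions shared by the 4 lists had 8.28 and 6.03 and those of a single 6-week list 5.03 and 6.62. Control tags were few, with medians of 7 and 4, and 32 and 139 members had no control tag in replicates 1 and 2. In such peaks the listed fold has no measured denominator.

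The lower of the 2 folds had a median of 3.87, near the limit of 3. It was under 3.5 in 452 members (33.3%), at least 4 in 624 (45.9%) and at least 8 in 112 (8.25%). By score, 30 members (2.21%) stood in the top 10% of the list of replicate 1 and 55 (4.05%) in that of replicate 2, against 22.8% and 21.3% of regions called in all 4. After scaling to 10000000 tags, IP tags of the replicates were within 2 times of each other in 1069 members (78.7%) and were higher in replicate 1 in 970. Their logarithms correlated with a Pearson r of 0.754 over the 1358 members. Both libraries had to pass the same limits, and members are not independent replicates.

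**Figure D1:**
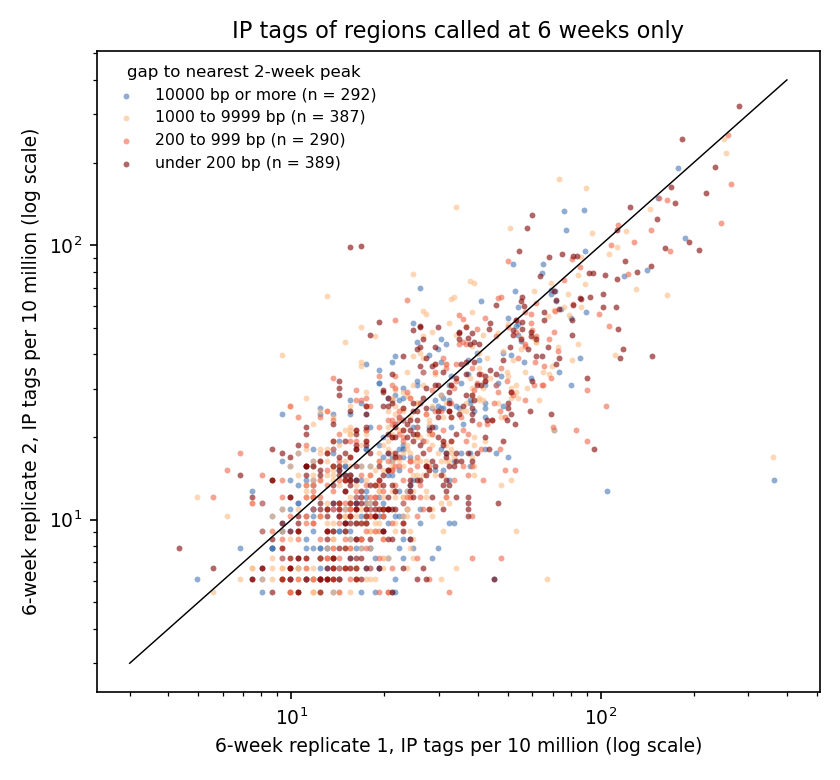
IP tags per 10000000 of each 6-week-only region in 6-week replicate 1 (x axis, log scale) and replicate 2 (y axis, log scale), coloured by the gap to the nearest 2-week peak, with the line of equality. The distance classes overlap over most of the range, and most points lie below the line, with 970 of 1358 regions higher in replicate 1.

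The 10 members with the best mean rank of score held 241 to 530 IP tags in each 6-week library, at 3.05-fold to 6.11-fold over control. The first was chr3:88879990-88880093 (build mm9 throughout), with 411 and 357 IP tags against 87 and 83 control tags in replicates 1 and 2. It stood 8773 and 15475 bp from the nearest peaks of 2-week replicates 1 and 2, the nearer of which held 9 tags. The second, chr4:137762133-137762235, held 415 IP tags in each library at 3.28-fold and 3.31-fold, with a 2-week replicate 2 peak 485 bp away. The third, chr10:80780771-80780872, held the most tags of the 10 in both libraries, 453 and 530, at 3.06-fold and 3.11-fold. It flanked, at 114 bp, a site called in all 4 libraries, whose IP tags per 10000000 were 1214 and 1146 in the 2-week libraries and 622 and 471 in those of 6 weeks. The fourth, chr14:55726243-55726369, with 403 and 404 tags, lay 8472 and 8930 bp from 2-week peaks in a locus with 41 regions.

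The remaining 6 of these 10 all had a 2-week peak under 1000 bp away. At chr12:60173519-60173764 the gaps were 824 and 812 bp, and at chr10:69487720-69487847 they were 432 and 439 bp. At chr6:72103587-72103802 they were 48 and 49 bp, and at chr16:36919238-36919353 they were 49 and 73 bp. The gaps were 17 and 94 bp at chr7:30162672-30162813, which held 379 and 317 IP tags at 5.30-fold and 5.11-fold, the highest lower fold of the 10. At chr12:3366533-3366692 they were 12 and 455 bp, beside a 2-week replicate 1 peak of 839 tags. Of the 10 strongest members, 8 therefore stood within 1000 bp of a site already called in at least 1 library at 2 weeks. The exceptions were the first and the fourth, at 8773 and 8472 bp. Over all members 50.0% had a 2-week peak that close. Of the regions called in all 4 libraries, which also score high, 78.7% had another region with a 2-week peak that close. The 8 of 10 is thus no trait of these members alone.

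Ranking by the lower fold gave 10 other members, most of them with very few tags. The first, chr7:104698262-104698368, was at 28.4-fold and 39.7-fold, but its IP tags were 581 in replicate 1 and 28 in replicate 2, the widest gap among these 10. The second, chr4:86817046-86817180, had 26 and 19 IP tags against 1 and 0 control tags, and its nearest 2-week peak lay 56151 bp away. The third, chr16:22533888-22534004, had 21 and 18 IP tags and stood 75 and 52 bp from a site with 2-week peaks of 21 and 20 tags, which also had a peak of 37 tags in 6-week replicate 1 (unscaled). At chr16:17148550-17148744, with 25 and 24 IP tags and 1 control tag in each library, the nearest 2-week peaks were 3183 and 3139 bp away. The other members of this set were chr11:110165439-110165543, chr17:87489716-87489875, chr3:145593392-145593512, chr4:150417917-150418040, chr5:149827063-149827244 and chr10:84579321-84579445, with 14 to 28 IP tags in replicate 1, 12 or 13 in replicate 2 and at most 1 control tag in any library. No member was both among the 10 strongest by score and among the 10 highest by fold.

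The distance to a 2-week peak varied widely. The median gap from a member to the nearest peak of either 2-week list was 1003 bp (interquartile range 162 to 7472), and 679 of 1358 members (50.0%) had one under 1000 bp away. The gap was under 200 bp for 389 members (28.6%), 200 to under 1000 bp for 290 (21.4%), 1000 to under 10000 bp for 387 (28.5%) and 10000 bp or more for 292 (21.5%). Measured to 1 list at a time, the median was 1755 bp for 2-week replicate 1 and 1572.5 bp for replicate 2. Of the 4499 mirrored regions, called in both 2-week lists and in no 6-week list, 21.7% lay under 200 bp from a 6-week peak and 34.7% at 10000 bp or more. Their median gap was 2146 bp, measured to the shorter 6-week lists. Regions of a single 6-week list lay farther out, with a median of 3065 bp and 15.6% under 200 bp. Sites called in all 4 libraries were the most crowded: the next region with a 2-week peak lay under 200 bp away for 51.9% of them. The gap is tied to the selection rule, so these shares are a description. The share of members under 1000 bp fell to 40.0% when 6-week replicate 1 was left out and to 33.2% when 6-week replicate 2 was, since single-list regions then count as members, and it was 27.9% when peaks less than 200 bp apart were merged.

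**Figure D2:**
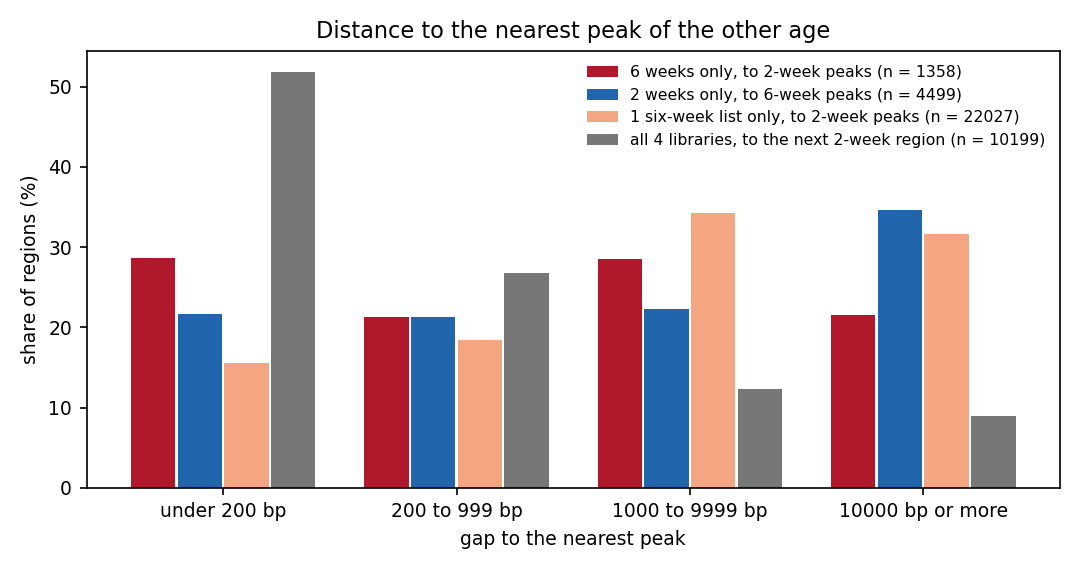
Share of regions (y axis, %) in 4 classes of gap to the nearest peak (x axis), for regions called at 6 weeks only, at 2 weeks only, in a single 6-week list, and in all 4 libraries. The 6-week-only regions fall at 28.6%, 21.4%, 28.5% and 21.5%, between the crowded regions of all 4 libraries and the sparser single-list regions in the nearest class.

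Members near a 2-week peak ranked somewhat higher in their lists than distant ones. Members under 200 bp from a 2-week peak held a median of 39 and 30 IP tags in 6-week replicates 1 and 2, and those at 10000 bp or more held 33 and 25.5. Their median folds were 4.77 and 5.37 against 4.72 and 5.11. By score, 52.4% of the near members stood in the upper 50% of the list of replicate 1 and 50.9% in that of replicate 2, against 37.3% and 40.1% of the distant ones. In the top 10% stood 3.86% and 5.91% of the near members, against 1.37% and 3.08%. The near members were thus higher in both libraries on each of these measures, which are given as a description.

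Few regions lay at the edge of the rule. Inside it, 26 members had a gap under 10 bp, and outside it 11 regions called in both 6-week lists overlapped a 2-week peak by at most 10 bp. The closest member, chr15:79314575-79314688, touched the next region with no base between them. It held 27 and 164 IP tags (16.7 and 99.3 per 10000000), and that region, called in all 4 libraries, held 525 and 442 per 10000000 at 2 weeks and 347 and 90.9 at 6 weeks. The member chr18:46663598-46663739, with 24 and 15 tags, also had a gap of 0 bp, to a peak of 48 tags found in 2-week replicate 1 alone. Gaps of 1 bp were found at chr9:22082981-22083090, chr18:16978760-16978899, chr10:43230360-43230490 and chr7:134587446-134587581, and gaps of 2 to 4 bp at chr12:71144948-71145050, chr16:94970377-94970520, chr1:57439661-57439818 and chr9:67069063-67069175. Just outside the rule, chr4:45296581-45296784 overlapped a 2-week replicate 2 peak by 1 bp, with 50 unscaled IP tags there and 40 and 29 at 6 weeks. The overlap was 2 bp at chr4:139520918-139521195 and at chr17:58550416-58550633, 3 bp at chr11:98018422-98018643 and 6 bp at chr14:30853505-30853784. Their 6-week IP tags, 10 to 40, were within the range of the members inside the rule.

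The nearest 2-week site was itself called again at 6 weeks for many of the close members. Of the 389 members under 200 bp from a 2-week peak, 172 (44.2%) had a neighbour that was also called in both 6-week lists, 108 (27.8%) one called in 1 of them, and 109 (28.0%) one called in neither. At 10000 bp or more the same shares were 23.3%, 26.0% and 50.7%. Of all 46999 regions with a 2-week peak, 26.1% were called in both 6-week lists, 23.4% in 1 and 50.5% in neither. The neighbours of distant members were thus near these shares, and those of close members were called in both 6-week lists more often, a difference that was not tested. Close peaks were also common within a single list. Of neighbouring pairs, 11.9% to 17.7% had a gap of 0 to under 200 bp, and a further 10.2% to 11.5% overlapped.

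**Figure D3:**
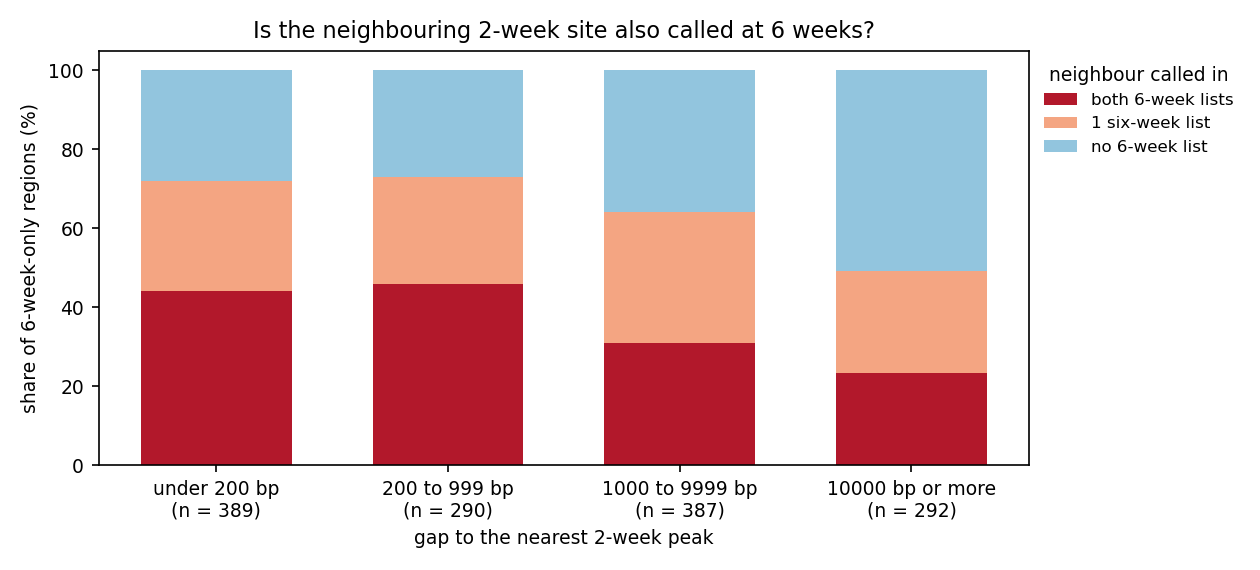
Share of 6-week-only regions (y axis, %) whose nearest 2-week site was also called in both, 1 or none of the 6-week lists, by the gap to that site (x axis). Under 200 bp the shares are 44.2%, 27.8% and 28.0%, and at 10000 bp or more they are 23.3%, 26.0% and 50.7%.

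Where the near neighbour was called in both 6-week lists, the member was usually the smaller of the pair. Over these 172 pairs the median was 44 IP tags in the member and 75.5 in the neighbour in replicate 1, and 36 and 55 in replicate 2. The member held fewer tags than its neighbour in 127 pairs in replicate 1 and in 135 in replicate 2, with a median ratio of 0.665 and 0.698. Its fold over control was also lower, with medians of 4.75 against 7.01 and 5.12 against 6.31. One example is chr7:30162672-30162813, whose neighbour at chr7:30162831-30163008 held 390 and 224 IP tags per 10000000 at the same age and 253 and 432 at 2 weeks.

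A replaced call, with a 2-week site under 200 bp away that neither 6-week list held, was seen at 109 members. The neighbour was present in both 2-week lists at 25 of them and in only 1 list at the other 84. The median gap over the 109 was 73 bp. Their medians were 32 and 24 IP tags in the members and 35.5 and 36 in the neighbours at 2 weeks (74 and 60 neighbours with a peak in replicates 1 and 2), not scaled for depth. The 25 with both calls are the nearest the lists come to a site that moved. They were 6.43% of the 389 members under 200 bp from a 2-week peak. Over all members, at any distance, 6.41% had a nearest neighbour of this kind. For comparison, 4499 of all 46999 regions with a 2-week peak were called at 2 weeks only. That pool is not matched to the members for crowding, and the difference was not tested. The examples below were chosen among the 25 after their values were seen. At chr5:73951105-73951347 the member held 260 IP tags (9.79-fold) and 161 (8.16-fold), and 8 bp away chr5:73950996-73951096 held 417 and 383 at 2 weeks. Per 10000000 tags these were 161 and 97.5 in the member and 178 and 167 in the 2-week site.

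Other pairs of the 25 were less balanced. At chr8:24049044-24049147 the member held 236 and 65 tags, and chr8:24048873-24049007, 36 bp away, held 303 and 560 at 2 weeks. At chr10:74454639-74454748 it held 56 and 79 tags, against 318 and 325 in the 2-week site 24 bp away, and at chr9:44317348-44317493 it held 24 and 21 against 203 and 178. Per 10000000 tags, the latter 2 members were at 34.7 and 47.9 and at 14.9 and 12.7, below their 2-week sites at 136 and 142 and at 86.6 and 77.5. At chr8:24049044-24049147 the scaled values overlapped, with 146 and 39.4 in the member and 129 and 244 in the 2-week site. The member was the higher one, scaled or not, at chr15:88930498-88930631, with 149 and 107 tags in the member and 78 and 82 in the 2-week site, and at chr8:4521849-4521951, with 72 and 38 against 14 and 29. At chr4:136098601-136098751 the member held 97 and 212 tags and the 2-week site 182 and 179, so the ages overlapped, as they did after scaling (60.1 and 128 against 77.7 and 78.0). The members chr5:33072454-33072588 and chr5:33072887-33073004, with 16 and 10 and with 23 and 18 tags, enclosed a single 2-week site of 14 and 11 tags. Values not given per 10000000 tags here are unscaled, and the 2-week IP libraries were sequenced more deeply.

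New loci were the smaller share. When regions less than 10000 bp apart were joined, the genome held 23925 loci, of which 1246 held a member. In 257 of these no 2-week peak was present, and they held 267 members, 19.7% of the total. Of the 257, 126 consisted of the member alone and 10 held 2 members. For comparison, 33.4% of the mirrored 2-week-only regions stood in loci without a 6-week peak, measured to the shorter 6-week lists. Of the regions called in a single 6-week list only, 28.2% stood in loci without a 2-week peak. The share of members in new loci was 30.4% without 6-week replicate 2, 29.99% with peaks of at least 8-fold, and 5.38% when loci were joined under 50000 bp. In contrast, 722 members (53.2%) shared a locus with a region called in all 4 libraries, and 276 with a region called at 2 weeks only.

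Members of new loci differed little in strength from the others. Their median was 33 and 26 IP tags at 4.73-fold and 5.32-fold, against 35 and 27 tags at 4.57-fold and 4.97-fold in loci with a 2-week peak. Control tags were 7 and 3 against 7 and 4. Both folds reached 4 in 129 of 267 (48.3%) and in 495 of 1091 (45.4%). Control tags at 2 weeks cannot be read at the new loci, since the 2-week lists hold no peak there.

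The 10 members farthest from any 2-week peak lay 203678 to 481782 bp away. The farthest was chr13:10359979-10360122, 481782 bp off, where 41 tags (6.69-fold) and 36 tags (5.11-fold) were counted. At chr10:45420362-45420469 the distance was 304308 bp, with 35 and 17 tags. At chr6:84858128-84858238 it was 282387 bp, with 49 and 75 tags against 12 and 15 control tags. At chr18:10815370-10815495 the replicates disagreed, with 169 and 21 IP tags and 54 and 4 control tags. The others were chrX:95753444-95753616, chr13:48359487-48359647, chr2:147331636-147331879, chr1:140383165-140383323, chrX:99485057-99485230 and chr8:107368628-107368730, with 13 to 34 IP tags in replicate 1 and 9 to 40 in replicate 2. The nearest 2-week peak itself was often faint: for 7 of the 10 it was in 1 of the 2-week lists alone, with 10 to 21 tags.

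The 10 new loci with 2 members spanned 0.258 to 15.6 kb. The shortest, chr8:36115710-36115967, held the pair and nothing else. chr18:39571488-39573994 and chrX:9743259-9752947 likewise consisted of 2 members alone, over 2.51 and 9.69 kb. chr11:21953414-21968493, chr11:61680821-61686486 and chr5:124021438-124030089 held 5 regions each, with no peak in either 2-week list and 2 to 5 peaks in each 6-week list. The other 4 were chr11:105102873-105118257, chr12:52883445-52899006, chr19:41285903-41289604 and chr8:113403658-113409805.

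Few loci gathered several members. Of the 1246, 1150 held 1 member, 83 held 2 and 13 held 3 or more. These 13 loci held 42 members among 182 regions, and in 8 of them both 6-week lists had more peaks than both 2-week lists. By the rule each member adds a peak to both 6-week lists and none to either 2-week list. The excess of 6-week peaks in loci chosen for their members therefore follows in part from the selection. The locus with the most was chr16:5049448-5089290, where 24 regions over 39.8 kb included 5 members and 3 regions called in all 4 libraries. It had 8 peaks in each 2-week list and 15 and 19 in the 6-week lists. From first to last, its members held 17 and 15, 46 and 43, 37 and 65, 49 and 19, and 75 and 44 IP tags in replicates 1 and 2. Their lower folds ran from 3.02 to 4.16, where the limit was 3. Only the first member, at 4.16, stood above the median lower fold of 3.87 over all members. Of the 3 sites called in all 4 libraries, chr16:5077272-5077386 had 43.5 and 67.1 IP tags per 10000000 in the 2-week libraries, then 45.9 and 49.7. At chr16:5049448-5049637 the values were 19.6 and 18.3 and then 25.4 and 18.2, and at chr16:5064666-5064808 they were 38.4 and 34.0 and then 15.5 and 17.6. The ages overlapped at the first and second of these sites, and the third was lower in both 6-week libraries.

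**Figure D4:**
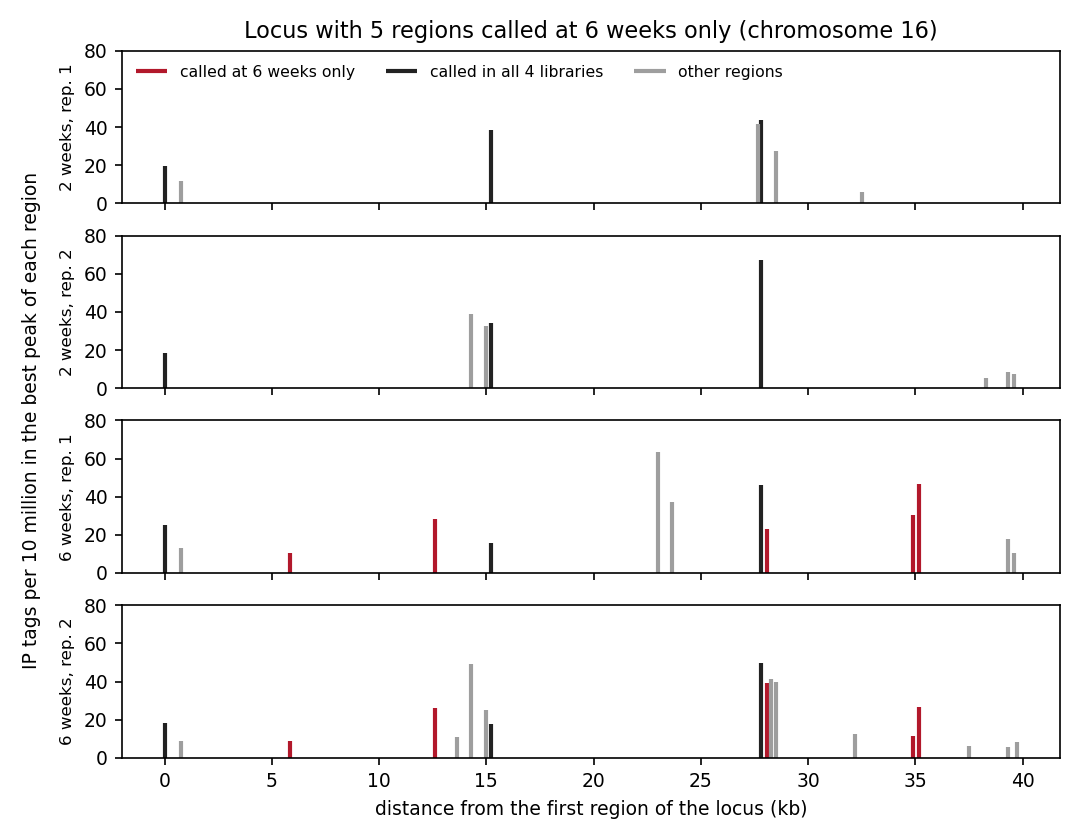
IP tags per 10000000 in the best peak of each region (y axis, 1 panel per library) along the locus on chromosome 16 with 5 regions called at 6 weeks only (x axis, distance from the first region in kb). By the rule that defines each class, the 5 red lines appear in the 6-week panels alone and the 3 black lines of regions called in all 4 libraries in every panel.

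The second locus, chr7:71517711-71537590, held 4 members in 12 regions and none called in all 4 libraries. It had 1 and 7 peaks at 2 weeks and 6 and 8 at 6 weeks, so the 2-week replicates differed more from each other than 2-week replicate 2 did from the 6-week lists. At chr2:155998627-156004311, 3 members stood beside a single site with a 2-week peak, which held 1718 and 3539 IP tags at 2 weeks. At chr2:76432837-76438134, the 3 members lay 1792 to 3466 bp from a site of 132 and 173 tags, and the lists had 2 peaks in each 2-week library and 4 and 7 at 6 weeks. The 3 members at chr10:57939384-57943537 lay 207 to 482 bp from the nearest 2-week peak, and the locus held 7 and 7 peaks at 2 weeks and 8 and 13 at 6 weeks. The other 8 loci, each with 3 members, were chr1:184420156-184425315, chr7:74870959-74881386, chr7:134744380-134755891, chr19:5039580-5054201, chr4:116268573-116283824, chr10:57732058-57748782, chr5:33069706-33088940 and chr9:106760350-106799123.

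Members were spread over all 20 chromosomes considered, with 39 to 122 each. As a share of the regions called in both 6-week lists, they ranged from 7.41% on chromosome 15 (39 of 526) to 15.95% on chromosome 16 (78 of 489) and 13.4% on chromosome X (48 of 357). The rest lay between 8.55% and 11.1%. These shares follow from the calls and carry no test.

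Whether control or IP tags changed with age close to the members was examined at sites the rule had not used. Tags of both ages can be compared where each of the 4 lists had exactly 1 peak, at 4576 regions, none of them a member. For 416 members (30.6%) such a region lay less than 10000 bp away, at a median of 1107.5 bp, and these were 387 distinct neighbours. Values below are tags per 10000000 after scaling by edgeR's trimmed mean of M-values (TMM), and changes are 6 weeks minus 2 weeks on the log2 scale with their SE, relative to the typical tested region. In bulk tissue, a change in the number of cells of a type and a change in RNA per cell cannot be told apart. Each list counts tags over its own interval, and the 4 starts lay within 20 bp of each other at 96 of the 387 neighbours. A permutation of 2 against 2 libraries cannot give an exact two-sided p below 0.333, so the tests rest on edgeR's spread pooled over regions.

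Few of these neighbours passed a test of control tags. They rose at 4 of 387 neighbours (1.03%), while 1.18% of all 4576 regions rose, and fell at 3 (0.775%), while 1.07% of all fell (edgeR quasi-likelihood test, Benjamini-Hochberg adjusted p under 0.05). At an unadjusted p under 0.05 there were 57 neighbours (14.7%), against 15.3% of all. Their median log2 change was 0.07, against -0.02 over all tested regions and -0.09 at the 704 neighbours of 2-week-only regions, and the change was above 0 at 54.8%, 49.0% and 46.6% of these in turn. Both 6-week values exceeded both 2-week values at 91 neighbours (23.5%; 20.8% of all regions) and lay below both at 91 others (23.5%; 25.3% of all). No neighbour was called without 2-week replicate 1 or without 2-week replicate 2, and without 6-week replicate 1 there were 5 higher and 7 lower. With total tags in place of TMM, 3 rose and 25 fell, and the median of all regions moved to -0.53.

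At chr19:5843904-5844043 control tags were 8.37 and 9.35 at 2 weeks and 68.1 and 39.4 at 6 weeks, a log2 change of 2.62 ± 0.43 (edgeR adjusted p = 6.44e-06). IP tags at this site also rose, from 101 and 91.4 to 577 and 358 (2.28 ± 0.40). The member 1187 bp away, chr19:5842553-5842716, held 113 and 36 IP tags. At chr16:5183896-5184085 control tags were 0.598 and 0.468 at 2 weeks, from 2 and 1 tags, and 12.9 and 9.84 at 6 weeks, with a log2 change of 4.25 ± 0.77. IP tags there rose from 6.97 and 11.8 to 59.5 and 60.3 (2.66 ± 0.44). Its member, 3043 bp away at chr16:5187129-5187263, held 35 and 15 tags at 34.3-fold and 5.32-fold. At both sites the ages did not overlap in either kind of tag. Both were named for passing these tests, so this is no separate support. The ratio of IP to control tags did not pass its test at either site.

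At chr9:89861163-89861320 control tags went from 1.49 and 4.68 to 17.9 and 9.84 (2.31 ± 0.56), a call lost without 6-week replicate 1. It lay 1184 bp from chr9:89859814-89859978, a member of 92 IP tags (4.74-fold) and 94 (6.06-fold). At chr5:126267606-126267722 they went from 21.2 and 31.3 to 61.7 and 84.2 (1.47 ± 0.37; edgeR adjusted p = 0.052 without 6-week replicate 2 and 0.127 with total tags). IP tags there were 203 and 260 at 2 weeks and 183 and 291 at 6 weeks, and overlapped. The member chr5:126268748-126268892, 1025 bp away, held 51 and 20 tags.

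Control tags fell at 3 neighbours. At chr9:20472851-20473003 they were 46.3 and 61.3 at 2 weeks and 12.2 and 15.3 at 6 weeks (-1.98 ± 0.42). The member chr9:20468685-20468881, 3969 bp away, held 24 and 16 IP tags. At chrX:132568548-132568654 they were 26.6 and 24.3 and then 9.32 and 4.37 (-1.82 ± 0.49), 561 bp from chrX:132569216-132569321, a member of 17 and 10 IP tags. The site chr17:37147155-37147322 had 13.8 and 16.4 and then 5.02 and 1.09 (-2.12 ± 0.58), 728 bp from chr17:37148051-37148209, which held 86 and 88 IP tags. The ages did not overlap at any of the 3, which were likewise named for passing the test. The calls on chromosomes X and 17 were lost without 6-week replicate 2.

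IP tags rose at 3 neighbours (0.775%; 0.83% of all tested regions) and fell at 3 (0.775%; 0.24% of all). Those that rose were the sites on chromosomes 19 and 16 above and chr11:59204316-59204432, which went from 4.26 and 3.93 to 17.9 and 22.7 (2.28 ± 0.45) at 130 bp from the member chr11:59204563-59204667. Those that fell were the site on chromosome 17 above (-1.80 ± 0.41), chr6:71460078-71460271, from 140 and 152 to 50.8 and 35.9 (-1.75 ± 0.39), and chr5:17233659-17233781, from 71.2 and 55.7 to 17.9 and 18.4 (-1.80 ± 0.41). The members of the sites on chromosomes 6 and 5 lay 775 and 1376 bp away. At an unadjusted p under 0.05 there were 77 neighbours (19.9%), against 17.4% of all. Both 6-week values lay above both 2-week values at 83 neighbours (21.4%; 23.1% of all) and below both at 85 (22.0%; 24.6% of all), and the median change was 0.04, against 0.03 over all regions. The counts moved with the libraries used: 0 were called without 2-week replicate 1 or 2 and with total tags, 21 rose and 14 fell without 6-week replicate 1, and 36 rose and 31 fell without 6-week replicate 2.

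The ratio of IP to control tags passed the edgeR test at none of the 387 neighbours and at 0% of all 4576 regions. The smallest edgeR adjusted p over all tested regions was 0.9996. Every tested region was at least 3-fold over control in all 4 lists. A site whose ratio fell below that limit at either age could not enter the test. The absence of calls therefore does not show that the ratio stayed the same. At an unadjusted p under 0.05 there were 8 neighbours (2.07%), against 2.84% of all, and DESeq2 and limma-voom also called 0. The median log2 change was -0.07 at the neighbours, against 0.02 over all regions and 0.06 beside 2-week-only regions, and the change was above 0 at 44.96% of the neighbours and at 51.4% of all regions. These medians were not tested. In the 13 loci with 3 or more members, 18 regions could be tested, and none passed in control tags, IP tags or the ratio. Their control tags changed by -1.41 to 2.08 with a median of 0.09, and their IP tags by -0.77 to 1.27 with a median of 0.40.

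**Figure D5:**
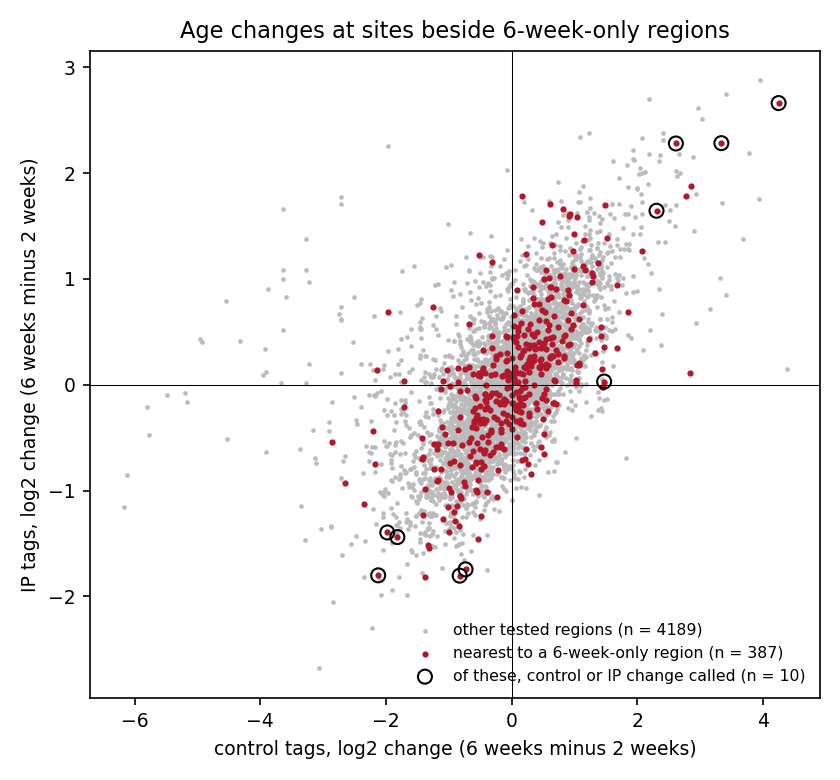
Log2 change from 2 to 6 weeks in control tags (x axis) and IP tags (y axis) at the 4576 regions with 1 peak in each list. The 387 regions nearest to a 6-week-only region (red) lie among the other 4189 (grey), and 10 of them (circled) passed the test in control or IP tags.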

How the data were processed

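The members and lists were chosen with earlier results of these data known. Build mm9, HOMER, Cufflinks 2.2.1, Bowtie2 2.2.3 and TopHat2 (2.1.1 and 2.0.13) appear without roles per the submitters' processing notes. The caller's options were not given in the sources used. Per the file headers, the deposited lists hold HOMER peaks, 1 list per library, with the IP tag count (raw in 2-week replicate 1), signal columns of tags scaled to the other library or to a fixed depth, a focus fraction, a findPeaks score, the fold ratio over control and its p-value, at most 8.32e-05. Deposited scaled signal was divided by the value of 1 tag, and 100% of IP and control values were whole within 0.2 tag. Between 720 and 893 peaks of a list shared a start with another.

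Gaps count the bases between intervals, and loci join regions less than 10000 bp apart. Named regions were the 10 best by mean score rank, the 10 farthest, the 10 closest, the 10 highest by lower fold, all loci with 3 or more members, 5 regions just outside the rule, and neighbours that passed a test. The pairs of a member and a replaced 2-week site, and the new loci with 2 members, were added after their values were seen. Tests used edgeR 4.0.16 (quasi-likelihood, TMM, Benjamini-Hochberg over 4576 regions), checked on simulated data. The tests of control and IP tags had an offset for peak width, and the ratio test had none. The alternatives were DESeq2 1.42.0, with its own depth scaling, and limma 3.58.1, both without the offset. Other alternatives varied overlap, merging, fold, list length, distance, filter and library. Gene annotation and sequence of build mm9 were not used here, so no gene is named and tissue markers were not checked.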

Additional observations from a re-analysis of the deposited data

How the results depend on the processing

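The number of members, 1358, was 767 when regions were rebuilt from peaks of at least 8-fold, and leaving out 1 library gave 2265 to 12715. The share within 1 kb of a 2-week peak (50.0%) was 61.5% with an overlap of at least 50% of the shorter peak, 27.9% with peaks under 200 bp merged, 28.6% and 78.5% with limits of 200 and 10000 bp, and 33.2% to 53.6% without 1 library. The share in new loci (19.7%) was 15.1%, 27.9%, 29.99% and 21.9% with the overlap rule, merging, 8-fold and equal list lengths, 27.5% and 5.38% with loci joined under 5000 and 50000 bp, and 21.1% to 30.4% without 1 library.

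Neighbours with higher control tags (4) numbered 2 in DESeq2 and 0 to 5 without 1 library, and those with lower (3) numbered 25 with total tags, 1 in DESeq2, which gave 270 of 387 no adjusted p, and 0 to 7 without 1 library. Higher IP tags (3) numbered 0 with total tags, 9 in DESeq2 and 0 to 36 without 1 library, and lower (3) numbered 0, 7 and 0 to 31, with 0 in limma-voom. With the replicate number as a block there were 14 higher and 12 lower in IP, and 4 and 3 in control tags, as without it. Deviations of same-numbered libraries from their age mean were nearly uncorrelated over the tested regions (correlation 0.0256 in IP and 0.0297 in control tags). With 2 libraries per age this cannot show whether same-numbered libraries were prepared together. The labels give only the number. The ratio gave 0 in each setting run, 0 to 0 without 1 library. The cause of these differences was not tested. An age left with 1 library was assumed to vary like the other.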
